A study of Homo sapiens with 54 samples.

Results

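Tubulin isotypes are the protein products of separate genes that encode the alpha and beta subunits of the microtubule. The 10 genes described here were *TUBA1A*, *TUBA1B*, *TUBA1C* and *TUBA4A*, which encode alpha-tubulin, and *TUBB*, *TUBB2A*, *TUBB2B*, *TUBB3*, *TUBB4B* and *TUBB6*, which encode beta-tubulin. They were listed by name as expressed tubulin genes, with no measured threshold, and are 10 of the 55906 gene rows in the 4 deposited tables. The list was made with earlier results of these data known. All 10 passed the filter on low values in all 4 cell lines (1 TPM or more in 4 or more libraries of a line).

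An alpha and a beta subunit, folded with the help of chaperonin and dedicated cofactors, form a heterodimer, and heterodimers join end to end into the protofilaments of microtubules, which build the mitotic spindle, carry intracellular transport and shape the cell. Cells hold tubulin mRNA steady through autoregulation: when free heterodimers accumulate, the protein TTC5 recognises the start of the growing tubulin chain on the ribosome and brings in a deadenylase complex, which removes the mRNA. Isotypes differ most at the ends of their chains, and several are markers of a tissue, such as *TUBB3* of neurons, although many tumour lines express them too.

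RNA-seq was performed in 54 libraries from 4 human cell lines, with 3 replicates in each of 18 conditions. A549 and NCI-H23 are lines from lung adenocarcinoma that stably expressed Zim3-dCas9, a nuclease-dead Cas9 fused to a repressor domain (CRISPRi), and were collected on day 5 after transduction with guides for control loci (Control KD), for *TRA2A* (*TRA2A* KD), for *TRA2B* (*TRA2B* KD) or for both (*TRA2A/B* DKD). LN229 and LN319 are glioma lines that overexpressed luciferase (Luc) or *TRA2B* (TRA2B-OE) and were collected on day 7 after transduction with a vector that carried Cas9 together with guides for control loci (Control KO), *TRA2A* (*TRA2A* KO) or, in the Luc arm only, *TRA2B* (*TRA2B* KO). *TRA2A* and *TRA2B* encode paralogous splicing factors. None of the sources used here describes cloning of the edited cells, so a KO library can hold uncut cells, and none says that the 3 replicates came from separate cultures. The p-values therefore measure the spread between these libraries.

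The mRNA of the targeted genes was lower in the libraries labelled for them, but to unequal degrees. These values do not measure protein, and the study verified knockdown or knockout by immunoblotting. The percentages of KD and KO are therefore not like measures of loss. *TRA2A* in *TRA2A* KD was at 9.56% of control in A549 and 6.54% in NCI-H23, whereas in *TRA2A* KO it was at 62.9% in LN229 and 33.2% in LN319. In *TRA2B* KO the level of *TRA2B* was 66.0% of the control level in LN229 and 35.1% in LN319, and in *TRA2A/B* DKD it was at 16.3% in A549 and 25.2% in NCI-H23. Both targets had higher means in DKD than in their own single KD. *TRA2A* was at 10.4 against 7.18 TPM in A549, where the libraries overlapped, and at 21.5 against 6.84 TPM in NCI-H23. *TRA2B* was at 22.4 against 13.3 TPM in A549 and 23.3 against 9.75 TPM in NCI-H23. In the TRA2B-OE arm of LN229, the *TRA2A* values overlapped between *TRA2A* KO (75.6, 68.8 and 65.4 TPM) and Control KO (84.3, 74.8 and 81.5 TPM). Of the markers of tissue, *KRT8* and *KRT18* were at 2779 and 2804 TPM in A549 and at 772 and 1155 TPM in NCI-H23, while the lung genes *NKX2-1* (0 and 0.733 TPM) and *SFTPB* (0.0195 and 0.0113 TPM) were near or at 0. Of the 6 genes listed as glial, *SOX2* and *VIM* were at 81.9 and 3031 TPM in LN229. *SOX2* and *VIM* were at 402 and 3265 TPM in LN319, where *OLIG2* was at 0.0101 and *S100B* at 0.348 TPM. The summed glial list had control means of 3853 TPM (LN229 Luc), 3676 TPM (LN319 Luc), 1602 TPM (NCI-H23) and 1112 TPM (A549). Both lung lines thus expressed part of the glial list too, and its level alone does not mark glial identity. The neuronal gene *DCX* did not exceed 0.0141 TPM on average in any of the 4 control groups. It does not stand for the whole list of 6 neuronal genes. The LN319 control had 2 of them over 1 TPM, the LN229 Luc control 3, the A549 control 4 and the NCI-H23 control 5. Summed over the list, the mean levels were 10.1, 35.5, 29.2 and 42.8 TPM, with the lines ordered likewise.

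TPM is a value per transcript length and per library total, so levels of different genes may be set side by side, but the number of reads behind a value is unknown. Fold changes and their standard errors (SE) are those of limma on log2(TPM + 0.1) after scaling between libraries, with Benjamini-Hochberg adjusted p across every gene kept in the line. A gene is said to have risen or fallen only at an adjusted p under 0.05. Libraries that stood apart are named beside the results they touch. Replicate 3 of the A549 Control KD had a median correlation with the other A549 libraries of 0.835, where the next lowest was 0.871. Replicate 1 of the LN229 Luc Control KO had tubulin levels near those of the *TRA2B* KO libraries, although its *TRA2B* (202 TPM) and *TRA2A* (105 TPM) were nearer to the other 2 controls than to the *TRA2B* KO.

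The 5′ ends of the coding sequences are shown first, because they encode the residues that autoregulation reads and because they show how alike the genes are. Each line gives the first 30 coding bases of the canonical transcript (Gencode v44, hg38), 5′ to 3′ on the strand of the gene, with the first 12 bases, the start codon and the next 3 codons, in capitals.
TUBA1A: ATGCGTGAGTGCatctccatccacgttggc
TUBA1B: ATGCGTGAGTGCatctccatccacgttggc
TUBA1C: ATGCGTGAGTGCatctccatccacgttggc
TUBA4A: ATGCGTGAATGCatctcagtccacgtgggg
TUBB: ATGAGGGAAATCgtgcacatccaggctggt
TUBB2A: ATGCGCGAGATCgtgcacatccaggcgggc
TUBB2B: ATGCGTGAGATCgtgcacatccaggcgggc
TUBB3: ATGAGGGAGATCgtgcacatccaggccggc
TUBB4B: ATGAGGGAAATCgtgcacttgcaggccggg
TUBB6: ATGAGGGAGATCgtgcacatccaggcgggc

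*TUBA1A*, *TUBA1B* and *TUBA1C* shared all 30 bases, and their whole coding sequences were 95.9% to 97.2% identical to each other. *TUBA4A* was 84.4% to 85.7% identical to those 3 genes. Among the beta genes, *TUBB2A* and *TUBB2B* were 98.1% identical, and the other pairs lay between 80.9% and 87.7%. The last 60 coding bases of *TUBB2A* and *TUBB2B* are given with the stop codon in capitals, because they show how little sequence separates the members of this pair.
TUBB2A: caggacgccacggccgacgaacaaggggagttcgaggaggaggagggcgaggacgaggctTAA
TUBB2B: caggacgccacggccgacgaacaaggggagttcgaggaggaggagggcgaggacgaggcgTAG

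*TUBB2A* and *TUBB2B* were the same at 59 of these 60 positions. Of the 31-base words in a coding sequence, the share found in no other of 71 tubulin genes and pseudogenes was 13.7% for *TUBA1B*, 26.7% for *TUBA1A* and 27.5% for *TUBA1C*. It was 16.3% for *TUBB2A*, 18.5% for *TUBB2B* and 44.5% for *TUBB*, against 73.4% to 90.5% for *TUBB3*, *TUBB4B*, *TUBA4A* and *TUBB6*. Reads without such a word are divided among the genes by estimation, so values of *TUBA1A*, *TUBA1B* and *TUBA1C*, and of *TUBB2A* and *TUBB2B*, are uncertain singly, and their sums are given where that changes a result. *TUBB* shared at most 0.766% of its words with any other of the 10 genes. Most of its shared words thus lie in tubulin genes or pseudogenes outside the 10, and no sum covers that division.

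*TUBA1B* (chr12:49127782-49131397, minus strand), *TUBA1A* (chr12:49184686-49189080, minus) and *TUBA1C* (chr12:49188736-49274600, plus) are neighbours on chromosome 12, and the annotated spans of *TUBA1A* and *TUBA1C* overlap on opposite strands. *TUBA4A* lies at chr2:219249710-219277902 (minus). *TUBB* lies at chr6:30717435-30725538 (plus), and *TUBB2A* (chr6:3153497-3157544, minus) and *TUBB2B* (chr6:3223324-3231730, minus) are close neighbours on the same chromosome. *TUBB3* lies at chr16:89921392-89938761 (plus), *TUBB4B* at chr9:137241287-137243707 (plus) and *TUBB6* at chr18:12307669-12344320 (plus). The canonical transcript of each of the 10 genes has 4 exons.

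In the control libraries the 4 lines shared their leading isotypes and differed in a few others. *TUBA1B* and *TUBB* were the most abundant alpha and beta isotypes in the control libraries of every line, and *TUBA1C* and *TUBB4B* came second. *TUBA1B* stood at 1559.9, 1768 and 1028 TPM in the A549 control libraries and at 1924, 2182 and 2088 TPM in those of NCI-H23. It stood at 1824, 2718 and 2667 TPM in LN229 and at 1246, 1116 and 1301 TPM in LN319. The ranges of A549 and LN319 overlapped, as did those of NCI-H23 and LN229, and the low value within A549 was replicate 3 and within LN229 replicate 1.

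*TUBB*, the main beta isotype of dividing cells, was at 987 ± 93.5 TPM (SD, n = 3 here and below) in A549, 1031 ± 42.8 TPM in NCI-H23 and, among the glioma lines, 909.9 ± 199 TPM in LN229 and 1249 ± 105 TPM in LN319. LN319 lay above the others without overlap, and the other 3 lines overlapped. *TUBA1C*, *TUBB4B* and *TUBB6* varied little as well, with 1.49-fold, 1.44-fold and 1.37-fold between the lowest and the highest line mean. The tables of the 4 lines were made separately, and none of these differences between lines was tested.

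The isotypes that set the lines apart were *TUBA4A*, *TUBB2A*, *TUBB2B* and *TUBB3*. *TUBA4A*, an alpha isotype abundant in platelets and neurons, was at 354, 332 and 338 TPM in A549 and at 170.1, 144 and 195 TPM in LN319, but at 11.8, 12.1 and 10.3 TPM in NCI-H23 and at 4.54, 8.67 and 8.82 TPM in LN229. The 4 lines did not overlap, and the highest mean was 46.5-fold above the lowest. *TUBB2B*, a beta isotype of the developing brain, was at 272, 258 and 303 TPM in LN319, at 133, 136 and 136 TPM in LN229, at 10.7, 9.92 and 9.47 TPM in A549 and at 5.31, 4.80 and 4.73 TPM in NCI-H23, a span of 56.1-fold between means and again without overlap. *TUBB2A* followed the same order with a span of 9.89-fold, from 21.1 ± 2.38 TPM in NCI-H23 to 209 ± 12 TPM in LN319. Both glioma lines were thus above both lung lines in *TUBB2A* and *TUBB2B*, and within each pair of lines the order was the same for the 2 genes.

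*TUBB3* did not follow that division. It was highest in LN229 at 382 ± 29.1 TPM and lowest in LN319 at 95.0 ± 9.38 TPM, with A549 (279 ± 28.7 TPM) and NCI-H23 (181 ± 6.86 TPM) between them and no overlap between neighbours in that order. *TUBA1A*, best known from developing neurons, ranged from 115 ± 9.58 TPM in NCI-H23 to 241 ± 17.8 TPM in LN319. In LN229 it had 195, 87.4 and 85.0 TPM, where replicate 1 was above any A549 or NCI-H23 control and the other 2 were below all of them. Of the tubulin genes outside the 10, *TUBA3C* was at 39.3 ± 16.5 TPM in LN229 and at no more than 0.50 TPM on average in the other controls, and *TUBB4A*, a beta isotype of oligodendrocytes, was at 38.2 ± 5.95 TPM in LN319.

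**Figure D1:**
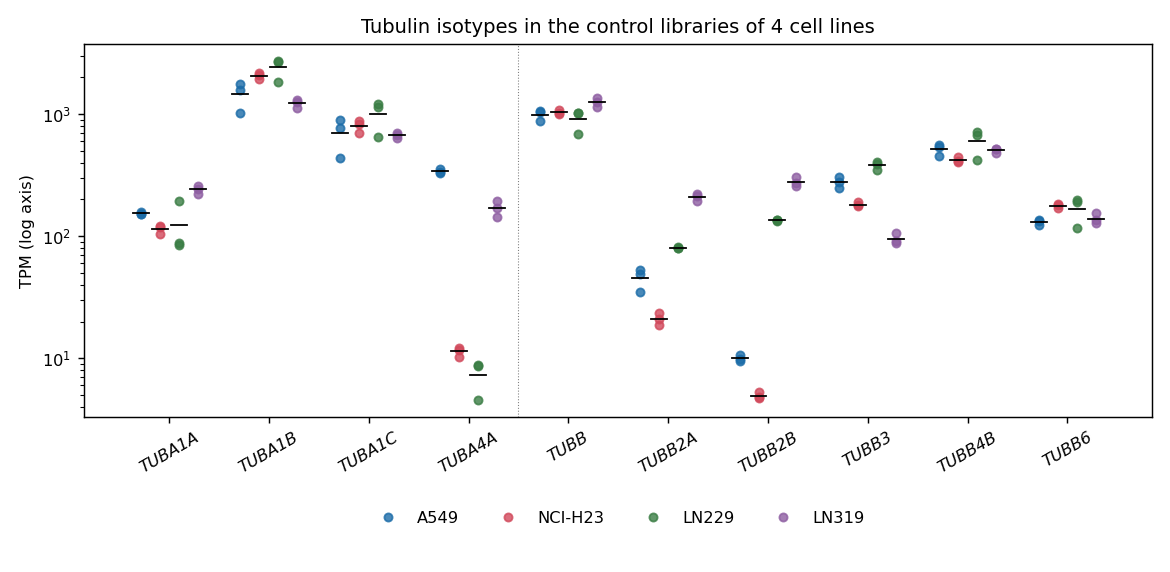
Level of each of the 10 tubulin genes in the 3 control libraries of each cell line (points, TPM on a log axis; black bars are means). *TUBA1B* and *TUBB* are high in all 4 lines, whereas *TUBA4A* is at 341 TPM in A549 and 7.34 TPM in LN229 and *TUBB2B* at 277 TPM in LN319 and 4.95 TPM in NCI-H23.

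Over the 18 condition means, the level of *TUBA1C* was most like that of *TUBA1B* (Pearson r = 0.94, log2 scale, among 9406 genes kept in all lines). The gene most like *TUBA4A* was *CD24* (r = 0.97), most like *TUBB2A* *UPRT* (r = 0.99), most like *TUBB2B* *MAGEF1* (r = 0.99), most like *TUBB3* *IKBIP* (r = 0.97) and most like *TUBB* *ELAVL1* (r = 0.90). These points share cell lines and tables, so a pattern of this kind largely follows the differences between the 4 lines, and no p is given.

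Single knockdown of either paralog moved 1 tubulin gene past the test in NCI-H23 and 0 in A549. In A549, 0 of 10 genes passed the test in *TRA2A* KD, where 0.207% of all genes did, and 0 of 10 in *TRA2B* KD, where 0.341% did. At an unadjusted p under 0.05, 11.3% and 13.5% of all genes passed. The median log2 fold change of the 10 was 0.28 in *TRA2A* KD, against 0.03 over all genes, and 0.03 in *TRA2B* KD, also against 0.03. All 10 estimates in *TRA2A* KD were positive, between 0.11 and 0.51. Without replicate 3 of the control they fell to between -0.02 and 0.16, and again 0 passed.

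In NCI-H23, 1 of 10 genes passed in *TRA2A* KD, beside 0.976% of all genes, and 0 of 10 in *TRA2B* KD, beside 0.196% (10.6% at an unadjusted p under 0.05). The gene was *TUBA1A*, at 90.0, 80.9 and 97.0 TPM in *TRA2A* KD and 104, 122 and 119.5 TPM in control, and the groups did not overlap (log2 fold change -0.35, SE 0.0593, adjusted p = 0.0199, limma). The call was lost in 6 of 14 alternatives, among them the removal of replicate 2 or 3 of the control or of replicate 1 of the knockdown, with log2 fold changes from -0.41 to -0.30 and adjusted p up to 0.274. It was also lost when *TUBA1A* was summed with *TUBA1B* and *TUBA1C*, with which it shares most of its coding sequence (log2 fold change -0.03, adjusted p = 0.895, limma). *TUBA4A* was also lower without overlap, at 8.07, 7.85 and 5.84 TPM against 11.8, 12.1 and 10.3 TPM, but did not pass (log2 fold change -0.64, 95% confidence interval -1.01 to -0.28, adjusted p = 0.106). Groups did not overlap in 3 of the 10 genes, beside 15% of all genes.

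Double knockdown lowered 7 of 10 tubulin genes in A549 and 5 of 10 in NCI-H23. In NCI-H23 the share called in either direction was close to that of all genes. In A549, 7 of 10 fell and 0 rose in *TRA2A/B* DKD, beside 30.6% of all genes called in either direction and 16.3% called lower (12.5% on the TPM as deposited). The median log2 fold change was -0.69, against 0.03 over all genes, and the groups did not overlap in 8 of 10 genes, beside 41.5% of all genes. In NCI-H23, 5 of 10 fell and 0 rose, beside 43.2% called in either direction and 23.2% called lower. The median was -0.14 against 0.02 over all genes, with no overlap in 7 of 10 genes, beside 52.1% of all genes. With a minimum of 5 TPM in the filter, 36.8% of genes were called in the A549 DKD, 18.8% of them lower among all tested. In the NCI-H23 DKD 52.8% were called and 27.4% called lower in that setting. On the TPM as deposited, 15.8% of all genes were called lower in NCI-H23. In that setting the call of *TUBB6* was lost and *TUBB2B* rose (log2 fold change 0.34, adjusted p = 0.0360, limma).

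*TUBB* fell most in both lines. In A549 it was at 1029.9, 1051 and 879.7 TPM in control and at 400.4, 414 and 405 TPM in DKD, or 41.2% of the control mean (log2 fold change -1.36, SE 0.131, adjusted p = 3.24e-05, limma). In NCI-H23 it went from 999, 1080.0 and 1015 TPM to 522, 541 and 569 TPM, or 52.7% (log2 fold change -1.08, SE 0.0566, adjusted p = 2.10e-07, limma). All 3 DKD libraries lay far below all 3 controls in each line. The single knockdowns of both lines lay between 896 and 1116 TPM, those of *TRA2A* KD in NCI-H23 below all its controls without passing (log2 fold change -0.16).

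*TUBB4B*, a broadly expressed beta isotype also used in cilia, followed. It was at 537, 557 and 452 TPM in the A549 control and 251, 268 and 269 TPM in DKD (log2 fold change -1.05, SE 0.135, adjusted p = 2.14e-04, limma), and at 402, 446 and 410.1 TPM in the NCI-H23 control and 318, 307 and 336 TPM in DKD (log2 fold change -0.54, SE 0.0475, adjusted p = 7.17e-06, limma). The groups did not overlap in either line.

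*TUBB3* fell to 63.7% of control in A549 (278, 307 and 250.0 TPM against 169, 188 and 176 TPM, log2 fold change -0.73) and to 87.7% in NCI-H23 (175, 180.2 and 189 TPM against 156, 155 and 166 TPM, log2 fold change -0.35), without overlap. *TUBB6*, a beta isotype of many non-neuronal cells, passed with smaller changes, -0.47 in A549 and -0.23 in NCI-H23. In NCI-H23 its TPM overlapped between groups (171, 183 and 179.9 and 163, 156 and 189), and the call was lost after quantile normalization, on the TPM as deposited (log2 fold change -0.08, adjusted p = 0.526, limma), and without replicate 1 of the control or replicate 1 or 2 of the DKD.

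*TUBB2A* and *TUBB2B*, the least abundant beta isotypes of the lung lines, did not pass in either. In A549 *TUBB2A* had 49.3, 53.1 and 34.7 TPM in control and 46.3, 46.8 and 51.2 TPM in DKD (log2 fold change 0.02, 95% confidence interval -0.39 to 0.42). The low control value was replicate 3, and without it the estimate changed sign to -0.24 and passed (adjusted p = 0.0144, limma). In NCI-H23 the log2 fold changes were 0.16 for *TUBB2A* and 0.19 for *TUBB2B*, and 0.34 for *TUBB2B* on the TPM as deposited, which passed (adjusted p = 0.0360, limma).

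Among the alpha isotypes, *TUBA1B* fell in both lines. It was at 748, 815 and 857 TPM in the A549 DKD against 1559.9, 1768 and 1028 TPM in control (log2 fold change -0.89, SE 0.218, adjusted p = 0.0105, limma), and at 1578, 1423 and 1651 TPM in the NCI-H23 DKD against 1924, 2182 and 2088 TPM (log2 fold change -0.57, SE 0.0665, adjusted p = 5.68e-05, limma). The groups were apart in both lines, and in A549 replicate 3 was the control nearest to the DKD. With only the control and DKD libraries in the A549 fit, *TUBA1B* (-0.88, adjusted p = 0.0726) and *TUBB6* (adjusted p = 0.0653, limma) no longer passed.

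*TUBA1C* and *TUBA1A* differed in sign or size between the lines. *TUBA1C* had 767, 891 and 437 TPM in the A549 control and 399, 457 and 506 TPM in DKD, overlapping because of control replicate 3, and did not pass (log2 fold change -0.64, adjusted p = 0.0894, limma). Without that library it passed at -1.02 (adjusted p = 2.28e-05, limma), and all 10 tubulin genes then passed with negative values, beside 20.2% of all genes called lower. In NCI-H23 *TUBA1C* had a log2 fold change of -0.05 (95% confidence interval -0.25 to 0.16).

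*TUBA1A* fell in the A549 DKD, from 157, 153 and 153 TPM to 112, 115 and 115 TPM (log2 fold change -0.52, SE 0.0900, adjusted p = 0.00155, limma). In the NCI-H23 DKD it was at 133, 128 and 139 TPM against 104, 122 and 119.5 TPM in control, higher in all 3 libraries, with a log2 fold change after scaling of 0.05 (95% confidence interval -0.08 to 0.18) that did not pass, and of 0.21 after quantile normalization, which did (adjusted p = 0.00851, limma). The summed TPM of *TUBA1A*, *TUBA1B* and *TUBA1C*, which is free of the division of reads among them, fell in both DKD, by 0.79 in A549 and by 0.38 in NCI-H23 on the log2 scale (adjusted p = 0.0220 and 0.00161, limma with Benjamini-Hochberg adjustment).

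*TUBA4A* fell in A549 and did not pass in NCI-H23. In A549 it went from 354, 332 and 338 TPM to 132, 154 and 152 TPM, or 42.9% of the control mean (log2 fold change -1.30, SE 0.109, adjusted p = 1.18e-05, limma). In NCI-H23, where the gene is expressed at a small fraction of that level, it had 14.6, 15.9 and 14 TPM in DKD and 11.8, 12.1 and 10.3 TPM in control, a log2 fold change of 0.22 (95% confidence interval -0.14 to 0.58). Fold changes of the 2 lines come from separate tables, and their difference was not tested.

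**Figure D2:**
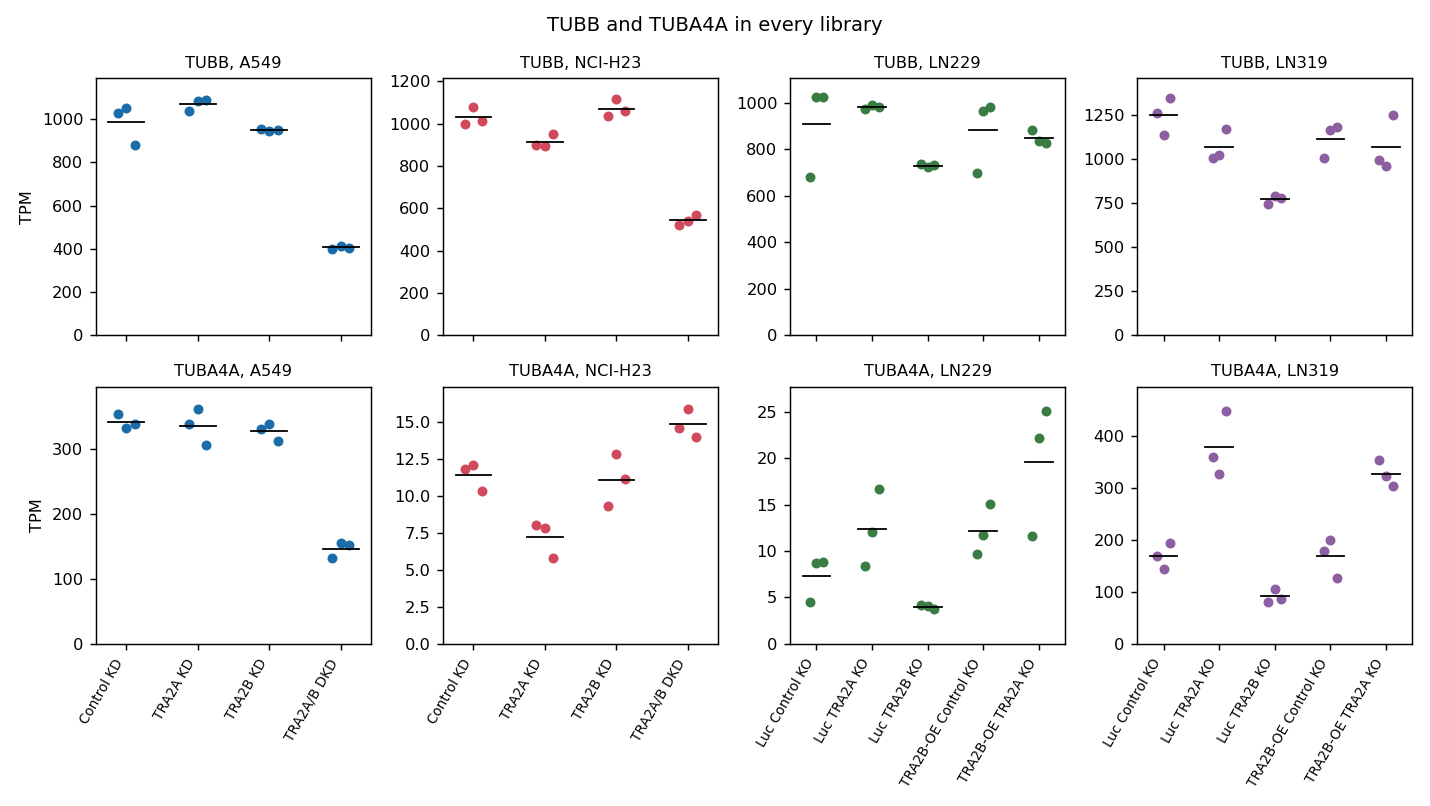
TPM of *TUBB* (top) and *TUBA4A* (bottom) in each library, by condition within each cell line (points are libraries, bars are means, axes start at 0). By mean within its line, *TUBB* is lowest in the DKD of both lung lines and in the *TRA2B* KO of both glioma lines. In LN229, however, replicate 1 of both Control KO groups lies below every *TRA2B* KO library in *TUBB*. *TUBA4A* is by mean lowest in the A549 DKD and highest in the Luc *TRA2A* KO of LN319.

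Departure of the DKD effect from the sum of both single effects, on the log2 scale, was tested as the DKD effect minus both single effects. Such a value does not by itself show that both paralogs must be lost. In A549, 8 of 10 genes had a negative value that passed, beside 14.7% of all genes in either direction and 8.89% lower. The values were -1.66 for *TUBB*, -1.61 for *TUBA1B*, -1.5 for *TUBA1C*, -1.45 for *TUBA4A* and -1.36 for *TUBB4B*, with adjusted p from 2.56e-04 to 0.0230 (limma). *TUBB3*, *TUBA1A* and *TUBB6* passed with -1.03, -0.80 and -0.58, and in 19 alternatives the call of *TUBB6* was lost 9 times and that of *TUBA1C* 3 times. One loss of *TUBB6* was on the TPM as deposited, where 3.76% of all genes were called lower. Because all 3 terms share the control libraries, replicate 3 weighs on each of them, and without it the value of *TUBA1B* was -1.27, that of *TUBB* -1.47, and 9 genes passed, beside 22.2% of all genes and 13% lower.

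In NCI-H23, 4 of 10 genes passed with negative values and 2 with positive ones, beside 12.8% and 8.23% of all genes. The negative values were -0.86 for *TUBB*, -0.54 for *TUBA1B*, -0.40 for *TUBB4B* and -0.38 for *TUBB3*. The positive ones were 1.03 for *TUBA4A* (adjusted p = 0.0100) and 0.32 for *TUBA1A* (adjusted p = 0.0198, limma). Both had the most negative estimates in *TRA2A* KD alone (-0.64 and -0.35). After quantile normalization *TUBB3* and *TUBB4B* no longer passed, nor did *TUBA1A* without the filter on low values. The summed TPM of *TUBA1A*, *TUBA1B* and *TUBA1C* had a value of -0.39 (adjusted p = 0.0207, limma).

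**Figure D3:**
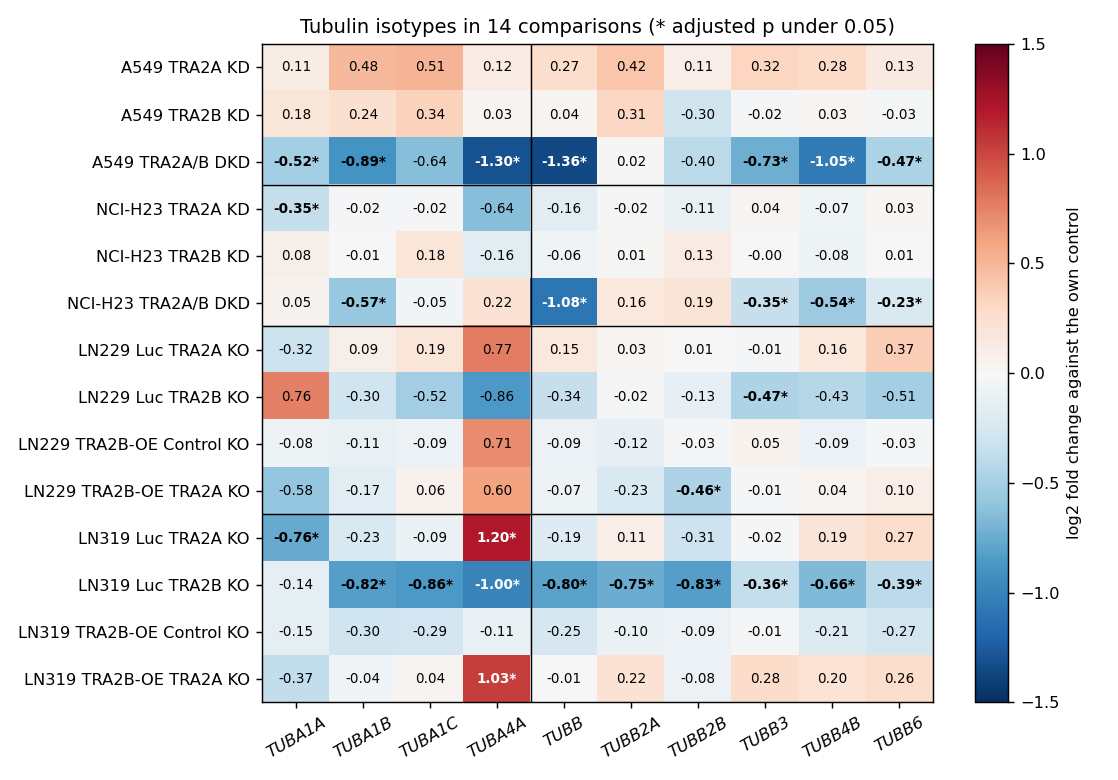
Log2 fold change of each tubulin gene (columns, alpha isotypes left of the line) in each of 14 comparisons (rows) within a cell line. The reference is the control of the same arm, except that TRA2B-OE Control KO is set against Luc Control KO. An asterisk marks an adjusted p under 0.05 in limma. Negative values that passed gather in the 2 DKD rows and in the *TRA2B* KO of LN319, and *TUBA4A* is the one gene that rose.

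Genes that work with tubulin are set beside the same background, 30.6% of all genes called in the A549 DKD and 43.2% in the NCI-H23 DKD. Of 20 genes for tubulin folding, which encode the chaperonin subunits, prefoldin and the tubulin cofactors, 8 fell and 0 rose in the A549 DKD (40% called, median -0.25), and 9 fell and 1 rose in the NCI-H23 DKD (50% called, median -0.22). *CCT2*, a chaperonin subunit, fell in A549, where it went from 324 to 161 TPM, and in NCI-H23, where it went from 384 to 255 TPM (log2 fold changes -1.09 and -0.75). *TBCD*, a cofactor of heterodimer assembly, fell by 0.87 on the log2 scale in A549, and the prefoldin gene *PFDN4* fell by 0.72 in NCI-H23.

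Of 12 genes for autoregulation of tubulin mRNA, 1 rose and 1 fell in the A549 DKD and 2 rose and 2 fell in the NCI-H23 DKD. These are 16.7% and 33.3% of the list, below the shares of all genes in both lines. *TTC5*, whose protein recognises the start of the tubulin chain, rose in both lines, from 12.6 to 19.4 TPM in A549 (log2 fold change 0.55) and from 8.59 to 14.9 TPM in NCI-H23 (log2 fold change 0.65). Genes of the CCR4-NOT deadenylase went both ways, with *CNOT9* at -0.87 in A549 and *CNOT7* at -0.53 and *CNOT8* at 0.35 in NCI-H23, all of which passed.

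Among 16 genes for enzymes that modify tubulin, 8 fell and 2 rose in A549, and 5 fell and 2 rose in NCI-H23, or 62.5% and 43.8% of the list, the latter close to that of all genes. *TTLL5*, a polyglutamylase, fell in both (-1.43 and -1.40), and *SIRT2*, a tubulin deacetylase, rose in both (0.52 and 0.29). Of 20 genes for binding and severing of microtubules, 7 fell and 1 rose in A549 (40%) and 7 fell and 4 rose in NCI-H23 (55%). *MAP7*, which brings kinesin to microtubules, had -1.20 and -1.32, and *SPAST*, which severs them, -1.23 and -0.96. Gamma-tubulin *TUBG1*, which nucleates microtubules, fell in both lines (-0.84 and -0.77), while epsilon-tubulin *TUBE1*, a centriolar tubulin, rose in both (1.77 and 0.84).

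Genes of the G2/M phase moved with the tubulin genes in the DKD. Of 52 such genes, none of them a tubulin, 43 fell and 0 rose in A549 (82.7% of the list, median log2 fold change -1.31), and 46 fell and 0 rose in NCI-H23 (88.5%, median -0.85). *MKI67*, a proliferation marker, was at 20.4% of control in A549, and *HMMR*, a spindle protein gene, at 32.3% in NCI-H23. The part of this change in the tubulin values was not tested. Of the tissue markers, 4 of 6 lung genes fell and 2 rose in A549 and 3 of 4 fell in NCI-H23, 2 of 3 glial genes fell in each line, and 1 of 5 and 2 of 4 neuronal genes rose. In bulk libraries, fewer cells that express a gene and less RNA per cell cannot be told apart.

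Knockout of *TRA2B* in LN319 lowered more tubulin genes than any other of the 14 comparisons with all libraries in the fit. Of 10 genes, 9 fell and 0 rose, beside 42.6% of all genes called in either direction and 24% called lower, with a median of -0.77 against 0.02 over all genes. Groups did not overlap in 9 of 10 genes, beside 55.3% of all genes. With a log2 fold change above 1 in size required as well, *TUBA4A* was the 1 gene to pass, beside 3.92% of all genes.

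*TUBB* was at 1264, 1138 and 1346 TPM in the LN319 Luc Control KO and at 744, 788 and 781 TPM in *TRA2B* KO (log2 fold change -0.80, SE 0.135, adjusted p = 5.29e-04, limma). *TUBA1B* was at 1246, 1116 and 1301 TPM and 708, 749 and 768 TPM (log2 fold change -0.82, SE 0.143, adjusted p = 6.29e-04, limma), and *TUBA1C* at 59.5% of the control mean (log2 fold change -0.86, SE 0.101, adjusted p = 6.75e-05, limma). In each of the 3 genes the highest KO library was below the lowest control.

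The brain isotypes *TUBB2A* and *TUBB2B*, which are abundant in LN319, fell to a like degree. *TUBB2A* went from 219, 196 and 212 TPM to 125, 139 and 138 TPM (log2 fold change -0.75, SE 0.0968, adjusted p = 1.13e-04, limma) and *TUBB2B* from 272, 258 and 303 TPM to 159.8, 169 and 175 TPM (log2 fold change -0.83, SE 0.139, adjusted p = 5.19e-04, limma), and their sum fell by 0.79 on the log2 scale. *TUBA4A* was at 81.2, 105 and 87.3 TPM against 170.1, 144 and 195 TPM (log2 fold change -1.0, SE 0.171, adjusted p = 5.86e-04, limma), and *TUBB4B* at 68.1% of control. *TUBB3* and *TUBB6* changed least of those that passed (-0.36 and -0.39).

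*TUBA1A* stood out among the alpha isotypes of LN319, at 236, 225 and 244 TPM in *TRA2B* KO and 243, 223 and 258 TPM in control, groups that overlap (log2 fold change -0.14, 95% confidence interval -0.51 to 0.23). Its sum with *TUBA1B* and *TUBA1C* fell by 0.74 on the log2 scale. The share of mitochondrial genes in all TPM was 18.3% to 20.6% in the *TRA2B* KO libraries, against 12.1% to 12.8% in the control, and their part in the tubulin values was not tested. On the TPM as deposited the same count of 9 passed, beside 42.6% of all genes called and 18.6% called lower. After quantile normalization 7 passed, beside 40.7% of all genes, with *TUBB* at -0.26 and *TUBA1B* at -0.26, and *TUBB3* and *TUBB6* no longer passing. The calls of *TUBB3* and *TUBB6* were also lost without replicate 3 of the control or replicate 1 of the KO, and that of *TUBB3* without replicate 2 of the KO. In the same comparison 4 of 6 lung markers fell and 1 rose, 1 of 4 glial markers rose and 1 fell, and 0 of 2 neuronal ones passed. Beside the 42.6% of all genes called in this comparison, 95% of the 20 folding genes passed, of which 18 fell and 1 rose (median -0.55), and 75% of the 52 G2/M genes, of which 36 fell and 3 rose (median -0.29). Of 12 autoregulation genes 6 fell and 0 rose (50%), and of 16 modification genes 4 fell and 3 rose (43.8%). Of 19 binding and severing genes 7 fell and 1 rose (42.1%). These shares are close to that of all genes called in either direction. The 6 autoregulation calls were all lower, however, beside 24% of all genes called lower.

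*TRA2A* knockout in LN319 gave 2 of 10 genes that passed, beside 14.3% of all genes. With a minimum of 5 TPM in the filter, 20% of genes were called, so the count is near the background. The 2 genes were alpha isotypes that moved in opposite directions. *TUBA4A* rose from 170.1, 144 and 195 TPM to 361, 328 and 449 TPM, or 223% of the control mean (log2 fold change 1.2, SE 0.171, adjusted p = 7.89e-04, limma). *TUBA1A* fell from 243, 223 and 258 TPM to 127, 138 and 152 TPM, or 57.6% (log2 fold change -0.76, SE 0.170, adjusted p = 0.0113, limma). The groups were apart in both genes, and both calls passed in all 14 alternatives, with log2 fold changes from 1.04 to 1.31 for *TUBA4A* and from -0.85 to -0.67 for *TUBA1A*.

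The other 8 genes did not pass, and their log2 fold changes lay between -0.31 for *TUBB2B* and 0.27 for *TUBB6*. After quantile normalization 5 genes passed, beside 14% of all genes, *TUBA1B* (-0.26), *TUBB* (-0.25) and *TUBB2B* (-0.31) being the others. The sum of *TUBA1A*, *TUBA1B* and *TUBA1C*, most of which is *TUBA1B* and *TUBA1C*, had a log2 fold change of -0.23 that did not pass (adjusted p = 0.283, limma).

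With *TRA2B* overexpressed, *TUBA4A* again rose on *TRA2A* KO in LN319, from 179, 199.5 and 127 TPM in the TRA2B-OE Control KO to 354, 324 and 304 TPM (log2 fold change 1.03, SE 0.171, adjusted p = 0.0126, limma). It was the 1 of 10 genes that passed, beside 2.77% of all genes, and the groups did not overlap. The call was lost when the fit held no other groups, and also without replicate 3 of the control or replicate 1 of the KO, with adjusted p up to 0.0970. *TUBA1A* was at 151, 155 and 214 TPM against 200.1, 216 and 283 TPM, which overlap, and did not pass (log2 fold change -0.37, adjusted p = 0.278, limma).

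Whether overexpression changed the response to *TRA2A* KO was tested as the difference of the responses in the TRA2B-OE and Luc arms. In LN319, 0 of 10 genes passed, beside 0.0207% of all genes and 7.91% at an unadjusted p under 0.05. The difference was -0.16 for *TUBA4A* (95% confidence interval -0.69 to 0.36) and 0.39 for *TUBA1A* (-0.13 to 0.91). The interval of *TUBA4A* leaves room for a change of its response in either direction. Overexpression by itself, TRA2B-OE Control KO against Luc Control KO, gave 0 of 10 genes in LN319, beside 4.31% of all genes (25% at an unadjusted p under 0.05), with log2 fold changes between -0.30 and -0.01.

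In LN229 the control libraries were far apart in most tubulin genes. *TRA2B* KO gave 1 of 10 genes that passed, beside 0.557% of all genes. It was *TUBB3*, at 349, 405 and 391 TPM in control and 278, 289 and 289.7 TPM in *TRA2B* KO, without overlap (log2 fold change -0.47, SE 0.0830, adjusted p = 0.0342, limma). The call was lost in 7 of 14 alternatives, among them the removal of control replicate 2 or 3 or of any 1 of the KO libraries, with adjusted p up to 0.202.

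Replicate 1 of the control lay with the KO libraries in most of the other genes. *TUBA1A* was at 195, 87.4 and 85.0 TPM in control and at 209, 196 and 189.6 TPM in *TRA2B* KO. *TUBA1C* was at 651, 1209.6 and 1148 TPM and 716, 698 and 687 TPM, and *TUBB* at 681, 1025 and 1024 TPM and 734, 723 and 731 TPM. In each of these genes the first control library was within or beyond the range of the KO, and the other 2 stood well apart from it.

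Without control replicate 1, 8 of 10 genes passed, 7 lower and 1 higher, beside 21% of all genes. *TUBA1A* then had a log2 fold change of 1.14, *TUBA4A* -1.17, *TUBA1C* -0.81, *TUBB6* -0.76, *TUBB4B* -0.67 and *TUBB* -0.55, with adjusted p from 0.00302 to 0.0290 over the 8 genes (limma). *TUBB2A* and *TUBB2B* did not pass with or without it, and their levels were close in all 6 libraries, for *TUBB2A* 80.3, 81.2 and 79.5 TPM against 80.8, 82.5 and 83.5 TPM. The G2/M genes had a median of -0.30 in the fit with all libraries, with 49 of 52 negative and 0 passing. Their summed TPM ran from 3727 to 6399 in the Luc Control KO and from 4299 to 4513 in *TRA2B* KO. In the TRA2B-OE Control KO it ran from 4048 to 5628. The wide spread of the controls was thus not limited to tubulin genes. Which of the controls better represents the line was not tested.

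The same library number stood apart in other LN229 groups. *TUBA1A* was at 172, 91.5 and 86.6 TPM in TRA2B-OE Control KO, at 117, 77.1 and 78.9 TPM in Luc *TRA2A* KO and at 92.7, 67.8 and 69.0 TPM in TRA2B-OE *TRA2A* KO, with replicate 1 the highest each time. In *TUBA1B*, *TUBA1C* and *TUBB*, replicate 1 was the lowest of the TRA2B-OE Control KO as it was of the Luc Control KO, whereas in both *TRA2A* KO groups it was close to the other 2 or above them. The labels give no batch that would name what these libraries share.

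**Figure D4:**
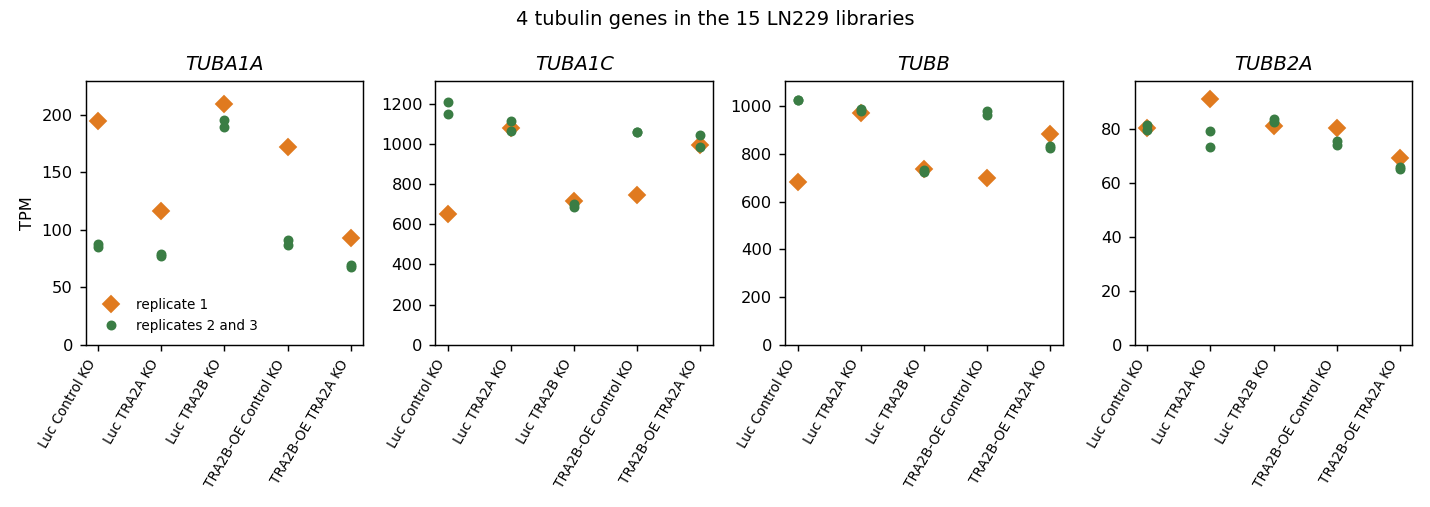
TPM of *TUBA1A*, *TUBA1C*, *TUBB* and *TUBB2A* in the 15 LN229 libraries, by condition (orange diamonds are replicate 1, green circles replicates 2 and 3, axes start at 0). Replicate 1 of both Control KO groups lies near the *TRA2B* KO libraries in the first 3 genes. In *TUBB2A* the Luc Control KO and *TRA2B* KO libraries together span 79.5 to 83.5 TPM, and replicate 1 of the TRA2B-OE Control KO, at 80.1 TPM, lies in that range, above the other 2 of its group.

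*TRA2A* KO in LN229 gave 0 of 10 tubulin genes, beside 3.79% of all genes (21.6% at an unadjusted p under 0.05). The widest estimate was that of *TUBA4A*, with 8.35, 12 and 16.7 TPM in KO and 4.54, 8.67 and 8.82 TPM in control (log2 fold change 0.77, 95% confidence interval 0.03 to 1.51, adjusted p = 0.211, limma). The groups overlapped through KO replicate 1. For *TUBA1A* the estimate was -0.32 (-0.99 to 0.34), an interval that does not exclude the fall measured in LN319.

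In the TRA2B-OE arm of LN229, *TRA2A* KO gave 1 of 10 genes, beside 6.05% of all genes. *TUBB2B* fell from 143, 139.7 and 129 TPM to 122, 97.4 and 89.2 TPM, without overlap (log2 fold change -0.46, SE 0.102, adjusted p = 0.0228, limma), and the call was lost in 6 of 14 alternatives, 4 of which left out replicate 1 or 2 of the control or replicate 2 or 3 of the KO. Without replicate 1 of any LN229 group, a setting added after the values were seen, 5 genes passed, beside 10.7% of all genes, *TUBA4A* higher at 0.79 and *TUBB2B*, *TUBA1A*, *TUBA1B* and *TUBB* lower at -0.55, -0.41, -0.37 and -0.26. Overexpression alone gave 0 of 10 genes, beside 1.03% of all genes (14.3% at an unadjusted p under 0.05), and the difference of the 2 *TRA2A* KO responses gave 0 of 10, beside 0% of all genes (5.78% at an unadjusted p under 0.05).

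The shares of the isotypes within a library do not depend on scaling between libraries. *TUBA1B* made up 54.6% ± 1.88 of the TPM of the 4 alpha genes in the A549 control, 69.1% ± 1.13 in that of NCI-H23, and 68.0% ± 0.389 in LN229 against 52.9% ± 0.417 in LN319. *TUBB* made up 50.2% ± 0.527, 56.2% ± 0.339, 39.8% ± 1.41 and 50.4% ± 0.580 of the TPM of the 6 beta genes. LN229 had the lowest share of *TUBB* of the 4 lines, and the *TUBA4A* share was 13.4% ± 3.46 in A549 and 7.33% ± 0.574 in LN319, against 0.383% ± 0.0462 and 0.204% ± 0.0299 in the other lines.

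In the DKD, *TUBB* was a smaller part of the beta-tubulin pool in both lung lines. The *TUBB* share was 50.8%, 49.7% and 50.1% in the A549 control and 41.5%, 39.8% and 40.4% in DKD, and 56.4%, 56.3% and 55.8% in the NCI-H23 control and 43.7%, 45.5% and 44% in DKD. The share of *TUBB6* was 6.66% ± 0.754 in the A549 control and 9.91% ± 0.911 in its DKD, against 9.69% ± 0.177 and 13.8% ± 0.722 in NCI-H23. In the same order of lines, that of *TUBB3* went from 14.2% ± 0.415 to 17.7% ± 0.307 and from 9.88% ± 0.485 to 13.0% ± 0.145. None of these groups overlapped, and each exact permutation p was 0.1, the smallest that 3 against 3 libraries can give, so no share could pass the threshold.

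In the alpha pool, *TUBA4A* went from 7.28%, 6.78% and 7.93% in the LN319 control to 17.8%, 15.9% and 19.0% in *TRA2A* KO, and *TUBA1A* from 10.4%, 10.5% and 10.5% to 6.28%, 6.69% and 6.42%. In the *TRA2B* KO of LN319 the *TUBA1A* share was 16.8%, 15.2% and 16.1%, above all controls. These groups were likewise apart, at the smallest exact permutation p of 0.1. The 10 genes together amounted to 4612 ± 803 TPM in the A549 control and 2523 ± 147 TPM in DKD, 4828 ± 306 and 3788 ± 278 TPM in NCI-H23, and 4782 ± 348 and 3081 ± 119 TPM in the control and *TRA2B* KO of LN319. The ratio of alpha to beta TPM, which was not tested, was 1.63 ± 0.0727 in the NCI-H23 control and 2.09 ± 0.142 in DKD, and 0.931 ± 0.00159 and 0.912 ± 0.0110 in the control and *TRA2B* KO of LN319.

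**Figure D5:**
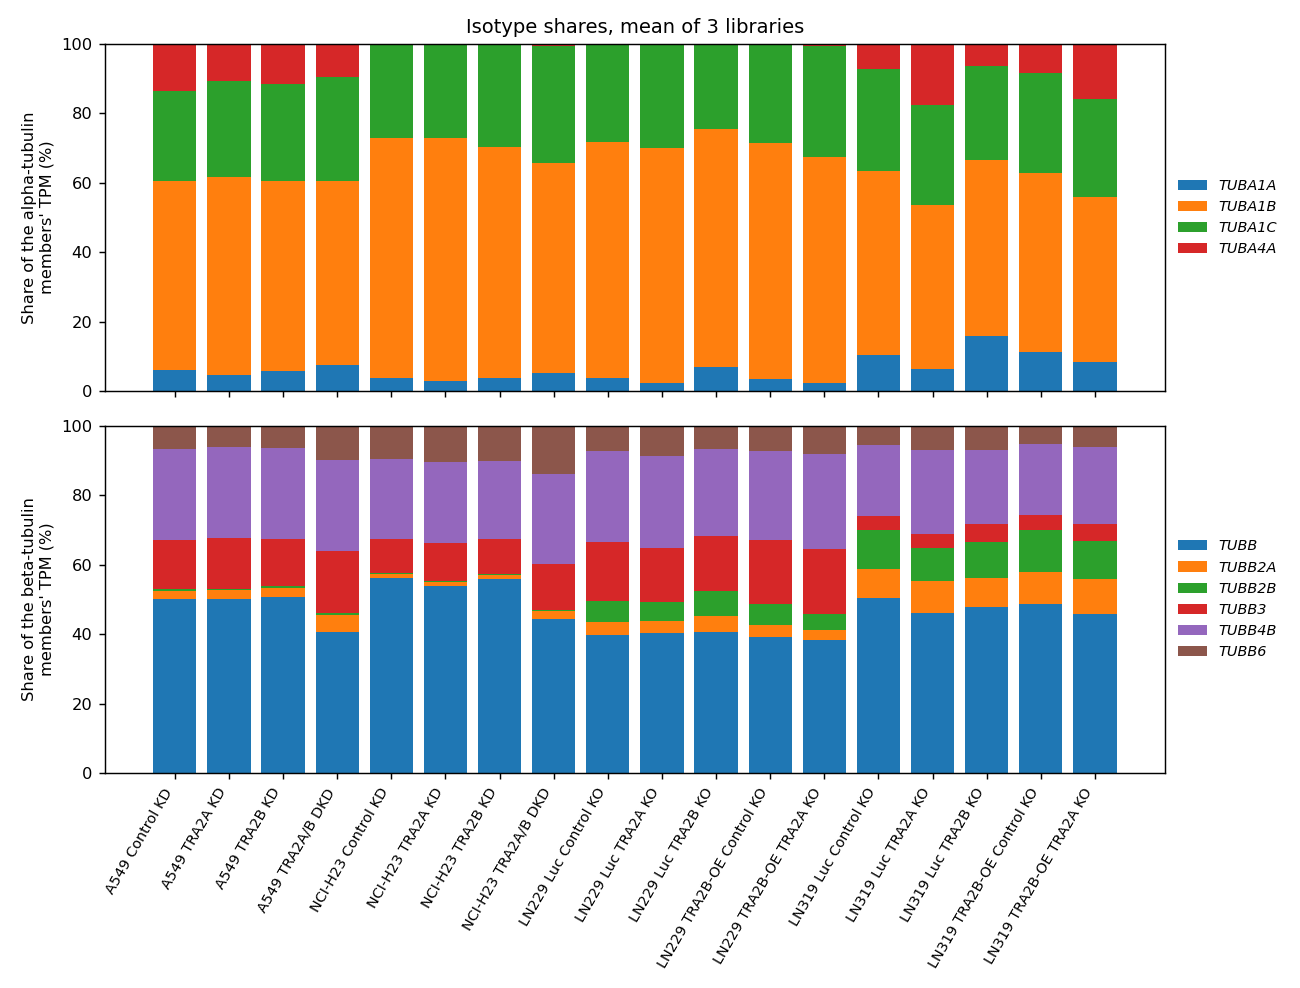
Mean share of each isotype in the summed TPM of the 4 alpha genes (top) and of the 6 beta genes (bottom), in percent, for each of the 18 conditions (mean of 3 libraries). *TUBB* takes less of the beta pool in the DKD of A549 (40.6%) and NCI-H23 (44.4%) than in their controls (50.2% and 56.2%), and *TUBA4A* takes more of the alpha pool in the LN319 *TRA2A* KO (17.6%) than in its control (7.33%).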

How the data were processed

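RNA-seq libraries of 54 samples (18 conditions, 3 replicates each) were analysed from 4 tables, 1 for each cell line. The authors deposited expression as TPM, in which the estimated reads of a gene are divided by transcript length and by the library total. The submitters' processing notes name STAR 2.7.3, kallisto 0.48.0 and GRCh38, and the study's methods give Gencode release 34. TPM holds no read depth, so the count model of the study could not be run, and no counting interval is given.

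Within each line, genes that reached 1 TPM in 4 or more libraries were kept (16293 to 19303 genes). Libraries were scaled by a trimmed mean of log ratios (30% of ratios and 5% of abundances trimmed at each end), and log2(TPM + 0.1) was fitted in limma 3.58.1 (R 4.3.3) with all libraries of the line, trended moderation, two-sided tests and Benjamini-Hochberg adjustment over all kept genes, at 0.05. Fold changes are on that log2 scale, which understates those of low genes. The 14 comparisons with the own control and 4 contrasts of contrasts were made, and the scripts were tested on simulated data. Shares were compared by an exact two-sided permutation test, whose smallest p is 0.1, and adjusted p was 0.246 at the least.

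Summed TPM per library was 928908 to 964610. Sequences and positions came from hg38 with Gencode 44. The named genes were all 10 tubulin genes, *TRA2A* and *TRA2B*, tissue markers, per list at most the 2 genes of largest change in each direction in the DKD, and the genes of most like pattern. The members and the gene lists were chosen with earlier results of these data known. Alternatives were other pseudocounts, filters and scalings, a replicate block, only the groups compared, a fold threshold, sums of near-identical genes and leaving out each replicate.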

Additional observations from a re-analysis of the deposited data

Results flagged for a closer look

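Each value below is a log2 fold change or a difference of such changes. After scaling, *TUBB* had all 3 *TRA2A* KD libraries above all 3 controls in A549 (0.27) and all 3 below in NCI-H23 (-0.16), and neither passed the test. *TUBA1A* had all 3 DKD libraries below the controls in A549 (-0.52) and all 3 above in NCI-H23 (0.052). *TUBB2A* had all 3 *TRA2A* KO libraries of the TRA2B-OE arm below the controls in LN229 (-0.23) and above them in LN319 (0.22). In these 3 cases the difference between the lines was not tested, because the lines were deposited in separate tables.

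The DKD effect differed from the sum of both single effects, by a test of that difference in limma with Benjamini-Hochberg adjustment, in 8 genes of A549 and 6 of NCI-H23. In A549 the difference was -0.80 for *TUBA1A*, -1.61 for *TUBA1B*, -1.5 for *TUBA1C*, -1.45 for *TUBA4A*, -1.66 for *TUBB*, -1.03 for *TUBB3*, -1.36 for *TUBB4B* and -0.58 for *TUBB6*. In NCI-H23 it was 0.32 for *TUBA1A*, -0.54 for *TUBA1B*, 1.03 for *TUBA4A*, -0.86 for *TUBB*, -0.38 for *TUBB3* and -0.40 for *TUBB4B*. No formal test for an outlying library was run within groups of 3.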

How the results depend on the processing

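Of 41 tubulin values that passed the test, 661 refits under other settings kept direction and significance in 607, lost significance in 53 and reversed the sign in 1. The cause of these changes was not tested. With a log2 fold change above 1 required as well, the counts became 3 in the A549 DKD (12.8% of all genes), 1 in the NCI-H23 DKD (12.8%), the NCI-H23 DKD beyond both single KDs (6.56%), the LN319 *TRA2A* KO (1.88%) and the LN319 *TRA2B* KO (3.92%), and 0 in the NCI-H23 *TRA2A* KD, the LN229 *TRA2B* KO and the LN229 TRA2B-OE *TRA2A* KO. Without the filter, or with only the groups compared, the same 3 counts of 1 became 0, as did the LN319 TRA2B-OE *TRA2A* KO with only the groups compared and the NCI-H23 *TRA2A* KD on the TPM as deposited. The fit without other groups called 0% of all genes in the LN229 *TRA2B* KO and the LN319 TRA2B-OE *TRA2A* KO. Quantile normalization gave 5 in the LN319 *TRA2A* KO (14% of all genes, against 14.3%). Leaving out 1 library gave 0 to 1 in the NCI-H23 *TRA2A* KD, 0 to 8 in the LN229 *TRA2B* KO (8, beside 21% of all genes, without control replicate 1), 0 to 1 in the LN229 TRA2B-OE *TRA2A* KO and 0 to 1 in the LN319 TRA2B-OE *TRA2A* KO. Without replicate 1 of any LN229 group, chosen after seeing the data, the LN229 *TRA2B* KO gave 8, beside 29.9% of all genes against 0.557% with every library, and the TRA2B-OE *TRA2A* KO 5, beside 10.7% against 6.05%. *TUBB2A* in the A549 DKD, 0.02 with all libraries, lay between -0.24 (without control replicate 3) and 0.17 when 1 library was left out. The NCI-H23 value of *TUBA1A* became -0.03 in the *TRA2A* KD, -0.38 in the DKD and -0.39 beyond both single KDs when summed with *TUBA1B* and *TUBA1C*. For the DKD beyond both single KDs a fit of only the groups compared could not differ, since it uses all groups. On the TPM as deposited the median log2 fold change of all genes moved from 0.03 to 0.11 in the A549 DKD, from 0.02 to 0.17 in the NCI-H23 DKD, from 0.02 to 0.12 in the LN319 *TRA2B* KO and from -0.05 to 0.26 in the A549 DKD beyond both single KDs.

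At a cutoff of 0.1, most same-numbered libraries were not paired: their deviations correlated over 0.1 in 3 of 18 pairs in A549, 1 of 18 in NCI-H23, 3 of 30 in LN229 and 0 of 30 in LN319. Whether a replicate number marked a shared batch was not tested. The 3 pairs of LN229 joined replicate 1 of the Luc Control KO, the Luc *TRA2A* KO and the TRA2B-OE Control KO. A library correlated best with its own number in 7 of 12 libraries of A549, 4 of 12 of NCI-H23, 8 of 15 of LN229 and 8 of 15 of LN319. With the replicate block, counts became 4 in the LN229 *TRA2B* KO (7.15% of all genes, against 0.557%), 2 in the LN229 TRA2B-OE *TRA2A* KO (10.3% against 6.05%), 1 in the LN319 TRA2B-OE Control KO (9.96% against 4.31%), 2 in the LN319 TRA2B-OE *TRA2A* KO (3.16% against 2.77%) and 3 in the LN319 *TRA2A* KO (16.1% against 14.3%). The read depth behind TPM is unknown, and 3 libraries a group limit what could pass.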
